A study of Mus musculus with 8 samples.

Results

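Stretches of the mouse genome that carried acetylation of histone H3 at lysine 27 (H3K27ac) in all 8 libraries of the study, and over a wide span, are described here. Overlapping peaks of all libraries (1 bp or more) were joined, which gave 33920 regions. Those with a peak in all 8 libraries, a merged width of at least 4000 bp and no single peak of 10000 bp or more in any library were kept. They number 2458, which is 7.25% of all regions and 14.8% of the 16607 regions shared by all 8 libraries, and they hold 22.0% of the merged length (14.02 Mb). The members were thus selected on measured peak positions and lengths, so their presence in every library and their width are not findings.

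The libraries come from 266-6 cells, a mouse pancreatic acinar line, and were made by chromatin immunoprecipitation and sequencing. All cells received siRNA at 25 nM for 48 h, non-targeting in the control and EGF groups and against ARID1A in the knockdown groups. All were kept without serum overnight and then given EGF at 40 ng/ml, or the 0.1% BSA vehicle, for 8 h. This gives 4 groups of 2 libraries, named control, EGF, knockdown, and knockdown with EGF. The genotype labels read Arid1a-wildtype and Arid1a-knockdown, but the knockdown was transient, the labels do not state that the siRNAs match the mouse sequence, and the Arid1a level was not analysed here. Replicate numbers follow the labels, and nothing there says that duplicates were separate cultures, so p-values reflect only how these samples vary, which may be technical variation. Depth is unknown, and the lists of peaks, 1 per library, were called separately.

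H3K27ac marks active promoters and enhancers, and long acetylated stretches usually hold several active elements side by side. ARID1A belongs to the SWI/SNF complex, which moves nucleosomes and works with acetyltransferases at enhancers. EGF activates its receptor and the MAP kinase pathway, which in acinar cells goes with a shift towards a duct-like state. The lists give positions in build mm9 and no gene names, an annotation of that build was not used here, and the acinar identity was therefore not checked against marker genes. Regions are named by position, and no overlap with genes, exons or introns is given.

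The members were mostly narrower than 6000 bp. Their median width was 5235 bp, the middle 50% lay between 4489.5 and 6500.75 bp, and the widest spanned 18998 bp. Only 790 of them (32.1%) reached 6000 bp and 26 (1.06%) reached 10000 bp. A single peak of at least 4000 bp was present in all 8 libraries for 386 members (15.7%), in 1 to 7 libraries for 1826 (74.3%) and in none for 246 (10.0%). Most members therefore met the width limit through the longest libraries, or through peaks joined between libraries.

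At the width limit, the narrowest members were chr4:47947020-47951019 and chr4:120486590-120490589, both of 4000 bp. The nearest shared regions left out were chr7:108502202-108506200 with 3999 bp and chr1:140140227-140144224 with 3998 bp. At the limit on peak length, chr8:119855061-119865435 was kept with a longest peak of 9970 bp and chr4:45794957-45805386 with 9969 bp. Just beyond it lay chr13:98968705-98979749 with 10013 bp and chr10:23803248-23813372 with 10014 bp. In all, 245 shared regions held a peak of 10000 bp or more and were left out, as were 58 regions that met both length limits but lacked a peak in at least 1 library.

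Members lay closer to other acetylated regions than the 13904 compact shared regions, those with a peak in all 8 libraries and a merged width under 4000 bp. The distance to the nearest other region had a median of 3.29 kb for members and 9.73 kb for compact regions. Within 50 kb the median number of other regions was 5 for members and 3 for compact regions. These are descriptions without a test, because width and spacing come from the same merging step. Chromosome 11 held the most members, 217, or 15.5% of its shared regions. Among chromosomes with members, the share was highest on chromosome 15, where 161 members made up 19.5%, and lowest on chromosome X, where 34 made up 9.60%.

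Inside the members, a stretch covered by a peak in every library, called the core here, took up a median of 2658 bp or 49.9% of the width. The core was a single block in 1796 members (73.1%), came in 2 blocks in 595 (24.2%) and in 3 or more in 51 (2.07%). In the other 16 members (0.651%) every library had a peak, but no base was covered by all 8. Over all members, 49.6% of the length was covered in all 8 libraries and 10.7% in 1 library alone. The peak was unbroken in every library in 1178 members (47.9%), broken into 2 or more peaks in some libraries in 1259 (51.2%) and broken in all 8 in 21 (0.854%).

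The steadiest wide members show how closely the 8 lists can match. At chr12:25777340-25786772, a member of 9433 bp, the covered length (bases under a peak) was 9062 and 9293 bp in control, 9257 and 9203 bp with EGF, 9330 and 9261 bp in knockdown, and 9104 and 9046 bp in knockdown with EGF, replicate 1 first as in all such lists here. The core was 9028 bp, and no group stood apart. At chr10:60393847-60400893 the covered length was 6686 and 6980 bp in control, 6950 and 6783 bp with EGF, 6757 and 6784 bp in knockdown, and 6955 and 6980 bp in knockdown with EGF. At chr19:7048552-7056420 it was 7088 and 7225 bp in control, 7317 and 7235 bp with EGF, 7568 and 7284 bp in knockdown, and 7483 and 7234 bp in knockdown with EGF. In none of the 3 did the EGF-treated libraries lie apart from the vehicle ones. At the other end, chr15:58852973-58870653, of 17681 bp, was broken into 4 and 3 peaks in control, 5 and 4 with EGF, 3 and 3 in knockdown, and 5 and 3 in knockdown with EGF. At chr17:12932968-12945615, of 12648 bp, there were 5 and 3 peaks in control, 2 and 2 with EGF, 2 and 2 in knockdown, and 3 and 3 in knockdown with EGF.

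Peaks in members ranked high within their lists. The authors' score of a member's strongest peak, as a percentile of all scores in the same list, was 69.97 and 77.9 (medians over members) in control, 71.2 and 73.6 with EGF, 75.5 and 76.1 in knockdown, and 69.0 and 71.6 in knockdown with EGF. Compact regions had medians of 59.0 and 68.2 in control, 59.5 and 60.9 with EGF, 67.1 and 67.6 in knockdown, and 59.5 and 61.4 in knockdown with EGF. In every library the members' median was the higher, by description only, since longer peaks offer more positions for a high score. The member with the highest lowest percentile over the 8 libraries was chr15:96114478-96120187, of 5710 bp. It was covered over 5281 and 5605 bp in control, 5580 and 5449 bp with EGF, 5661 and 5650 bp in knockdown, and 5396 and 5425 bp in knockdown with EGF, with a core of 5172 bp. The next 4 were chr17:46991428-46996131, chr5:66151907-66157584, chr6:51417732-51422420 and chr6:86472595-86478678. The member whose highest percentile was lowest, chr14:26289558-26301126, was 11569 bp wide, had percentiles between 17.2 and 30.4, and had no core. It was followed by chr12:17739552-17746092 and chr15:63818626-63825244. Across the 2458 members, which share libraries and lists, the mean percentile and the core's share of the width had a Spearman rho of 0.54, and the mean percentile and the width one of 0.17.

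EGF-treated libraries covered less of the members than most vehicle libraries. The mean share of a member's width under peaks was 66.2% and 81.6% in control, 63.6% and 65.2% with EGF, 83.6% and 87.2% in knockdown, and 66.6% and 69.7% in knockdown with EGF. The first control library lay among the EGF-treated ones, and the other 3 vehicle libraries lay above all of those. The mean was 66.3% ± 2.60 with EGF and 79.6% ± 9.25 in vehicle libraries (SD, n = 4; exact two-sided permutation p = 0.0857). Without control replicate 1 the difference was -17.8 percentage points, with the remaining libraries fully apart because of that choice, so no p is given for it. The smallest p that 4 libraries against 4 can reach is 0.0286. By group, the mean was 73.9% ± 10.9 in control, 64.4% ± 1.10 with EGF, 85.4% ± 2.58 in knockdown and 68.2% ± 2.21 in knockdown with EGF (SD, n = 2).

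Other values per library moved along with this share. A peak of at least 4000 bp was present in 32.1% and 57.1% of members in control, 28.1% and 30.9% with EGF, 60.5% and 68.5% in knockdown, and 33.2% and 36.9% in knockdown with EGF. Members were broken into 2 or more peaks in 26.7% and 18.7% of cases in control, 25.8% and 24.1% with EGF, 16.7% and 13.7% in knockdown, and 23.8% and 24.4% in knockdown with EGF. Here too the first control library lay with the EGF-treated ones. Over both Arid1a states the broken share was 24.5% ± 0.888 with EGF and 18.9% ± 5.57 without (SD, n = 4; two-sided exact permutation p = 0.143). Without control replicate 1 the difference was 8.19 points, again with no p given. It was 1.2002 points with only peaks of a −log10 q of 3 or more kept, 3.14 points over members of at least 3000 bp and 8.55 points over those of at least 5000 bp. In all, 16 such comparisons of single values were made (8 measures, EGF and knockdown), and the Benjamini-Hochberg adjusted exact permutation p was 0.229 or more for each.

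The length of the lists moved with these values, and its part in them was not tested. The lists held 22167 and 28281 peaks in control, 22361 and 23080 with EGF, 26844 and 27558 in knockdown, and 22030 and 23256 in knockdown with EGF. Compact regions were covered over 67.3% ± 1.90 of their width with EGF and 76.9% ± 8.03 without (SD, n = 4; two-sided exact permutation p = 0.143). Set against all covered sequence of its own list, the part lying in members was 27.2% and 24.3% in control, 26.3% and 25.8% with EGF, 25.4% and 25.2% in knockdown, and 27.4% and 26.7% in knockdown with EGF. This share had a mean of 26.5% ± 0.683 with EGF and 25.5% ± 1.21 without (SD, n = 4; two-sided exact permutation p = 0.2). The median fold enrichment of a member's strongest peak, the authors' value over the caller's background, was 5.44 and 6.67 in control, 5.55 and 6.09 with EGF, 6.77 and 6.88 in knockdown, and 6.16 and 5.99 in knockdown with EGF. The 3 libraries with the longest lists also had the highest fold enrichments.

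**Figure D1:**
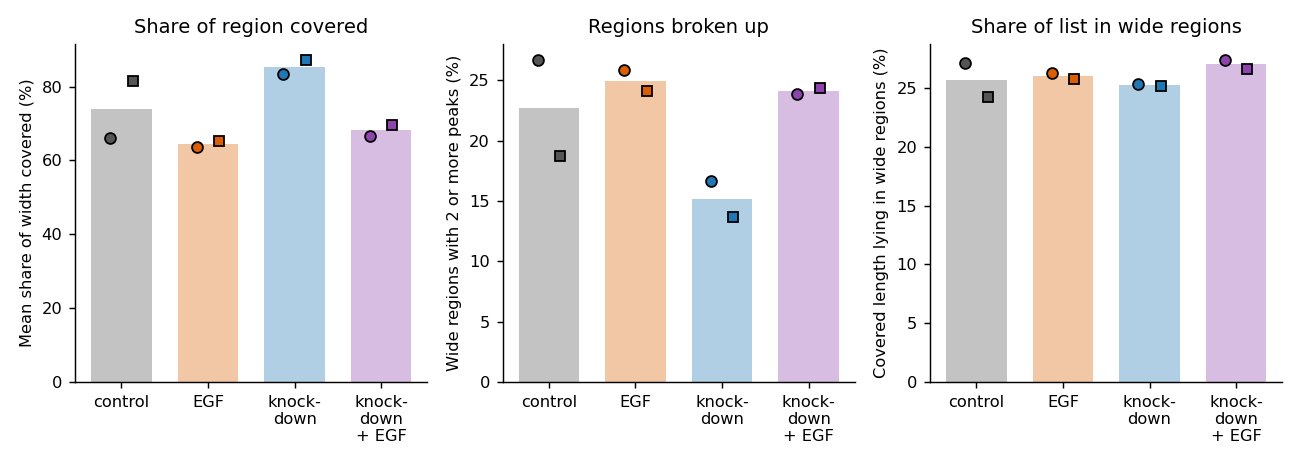
Values per library over the 2458 members, by group, with circles for replicate 1 and squares for replicate 2. The first control library lies with the 4 EGF-treated libraries at a mean covered share of 66.2%, and the other 3 vehicle libraries lie at 81.6% or more.

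Knockdown libraries covered more of the members than Arid1a-intact ones in the mean, within the spread of the libraries. The mean share was 76.8% ± 10.1 in the 4 knockdown libraries and 69.1% ± 8.36 in the 4 intact ones (SD, n = 4; two-sided exact permutation p = 0.171), and this test leaves the EGF difference in the spread. The broken share was 19.6% ± 5.30 with knockdown and 23.8% ± 3.58 without (SD, n = 4; exact permutation p = 0.2). The share of the list's covered length lying in members was 26.2% ± 1.05 and 25.9% ± 1.22 (SD, n = 4; exact permutation p = 0.743).

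The uncovered part of a member lay mostly at its ends. With both ends added together, the stretches outside the outermost peaks left 27.4% and 14.5% of the width uncovered in control, 29.9% and 29.0% with EGF, 13.03% and 10.1% in knockdown, and 27.6% and 24.6% in knockdown with EGF. Gaps between peaks took a further 6.44% and 3.93% in control, 6.48% and 5.82% with EGF, 3.42% and 2.65% in knockdown, and 5.76% and 5.71% in knockdown with EGF. At both places the second control library and the 2 knockdown libraries had the least uncovered sequence. The ends had a mean of 27.8% ± 2.34 with EGF and 16.3% ± 7.62 without (SD, n = 4; two-sided exact permutation p = 0.0571), and the gaps 5.94% ± 0.362 and 4.11% ± 1.64 (SD, n = 4; exact permutation p = 0.114). A vehicle library reached 78.7% of the members' ends and an EGF-treated library 21.5%, so the width limit favoured regions that are long in vehicle libraries.

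In 861 members (35.03%) some sequence was covered in all 4 vehicle libraries and in no EGF-treated one, in all 274.6 kb or 1.96% of the members' length. Of this, 64.5% lay beyond the outermost EGF-treated peak of the member. The reverse, covered in all 4 EGF-treated libraries and in no vehicle one, was found in 97 members (3.95%) and 31.4 kb (0.224%), of which 64.7% lay beyond the outermost vehicle peak. Neither was counted over other regions, so no background share can be set beside them. As the width limit favoured regions long in vehicle libraries, the imbalance is a description only.

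**Figure D2:**
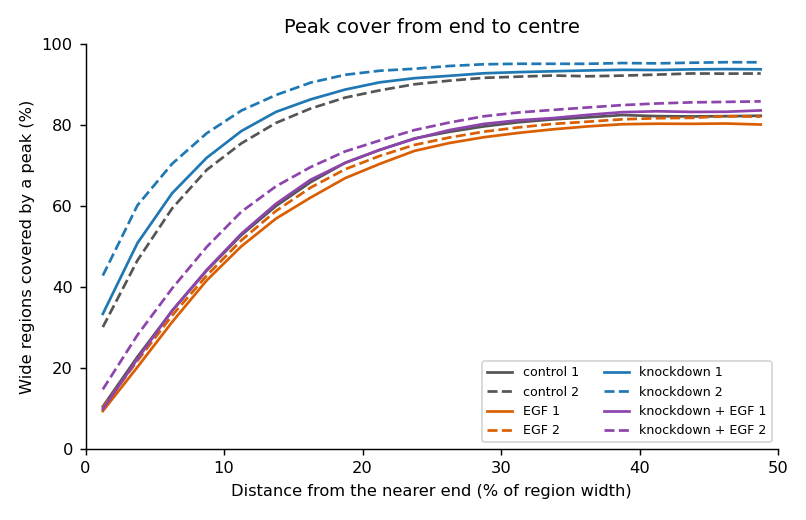
Share of members covered by a peak in each library at 20 positions from the nearer end of the merged region to its centre. At the outermost position the cover was 9.32% to 14.7% in the EGF-treated libraries and 10.4% in the first control library, against 30.1% to 42.8% in the other 3 vehicle libraries.

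Covered length was then compared region by region. The values were log2(covered bp + 200), tested with limma over the 28146 regions found in 2 or more libraries, with the threshold at a Benjamini-Hochberg adjusted p of 0.05. Over both Arid1a states 490 members (19.9%) fell with EGF, where 11.2% of all tested regions did, and 37 (1.51%) rose, where 1.79% of all tested regions did. The members' median log2 difference was -0.23 and that of all tested regions -0.25, so 1290 members (52.5%) lay above the median of all regions. Among compact regions 7.11% fell and 0.741% rose. Since members were selected on length, and mainly on length in vehicle libraries, their shares are given as descriptions. In 352 of the 490 and 30 of the 37 the 4 EGF-treated libraries did not overlap the 4 vehicle ones. Without regard to the limma test, such a gap was found downwards in 521 members (21.2%; 14% of all tested regions) and upwards in 48 (1.95%; 2.33%).

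Among members, the number of falls, though not their prevalence over rises, depended on scaling and on single libraries. With quantile normalization, which moved the median of all tested regions from -0.25 to 0.04, 296 members fell and 172 rose. Of all 28146 tested regions 1468 then fell and 1592 rose, and of the 13904 compact regions 357 fell and 516 rose. Under this scaling falls thus did not outnumber rises over all tested regions or over compact regions. With the median over shared regions set equal, 294 members fell and 123 rose, where 1935 and 968 of all tested regions did. Of the compact regions 430 then fell and 399 rose. All 37 rises passed under both scalings, as did 287 and 291 of the 490 falls. The total of 527 became 814 without control replicate 1, 238 and 186 without knockdown replicate 1 and 2, 226 and 309 without knockdown with EGF replicate 1 and 2, and 211 and 278 without EGF replicate 1 and 2. The median log2 difference moved in members and in all tested regions alike. It was -0.29 and -0.34 without control replicate 1, and -0.17 and -0.15 without control replicate 2. Without any 1 of the other libraries it was -0.24 to -0.21 in members and -0.27 to -0.22 in all tested regions. Falls outnumbered rises in both sets in each of these fits. Among members whose EGF-treated libraries alone span 4000 bp, 1599 in number, 255 fell and 37 rose, where 3151 and 503 of the 28146 tested regions did. This filter favours members that are long with EGF, so that all 37 rises were kept is not a result.

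**Figure D3:**
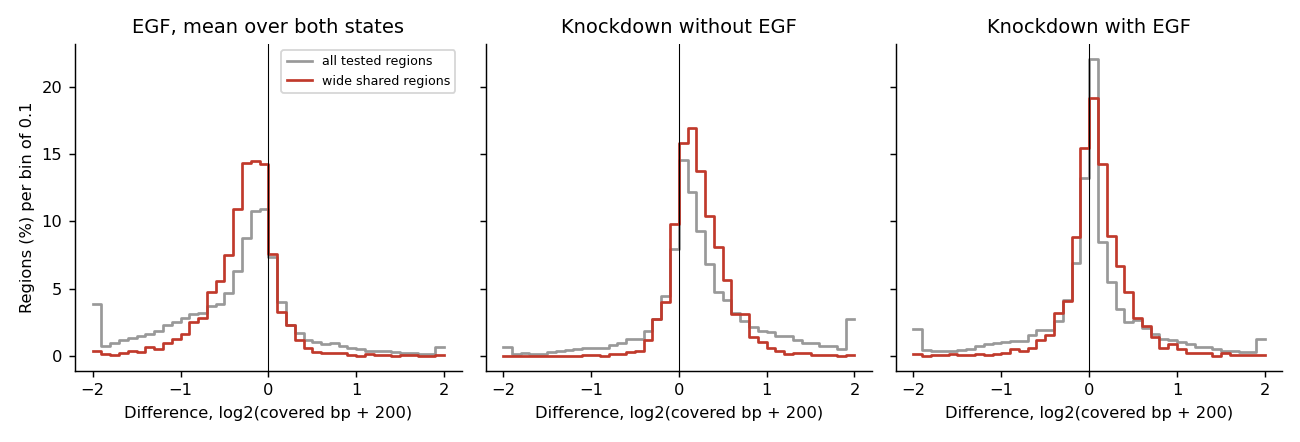
Distribution of the log2 difference in covered length over the members and over all tested regions, with values beyond 2 in either direction placed in the end bins. For the mean EGF effect the members' median is -0.23 and that of all tested regions -0.25, and for knockdown without EGF the medians are 0.19 and 0.18.

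The falls were more frequent among members with low-ranking peaks. When members were ordered by the mean score percentile and parted into 3 sets of like size, 23.4% of the lowest set fell with EGF, 19.3% of the middle set and 17.1% of the top set. The median log2 difference was -0.37, -0.22 and -0.18 in that order, and the core's median share of the width was 34.0% in the lowest and 60.6% in the top set. By width, 16.4% fell among members under 5000 bp, 22.4% among those from 5000 to under 7000 bp and 22.9% among those of 7000 bp or more. Members with 1 core fell in 19.7% of cases and those with 2 or more in 20.7%, and members with a single peak in every library in 14.7%. These shares were not compared by a test. The score percentile was a mean over all 8 libraries, the EGF-treated ones included, so the sets are not independent of the falls. The 37 rising members lay on 16 chromosomes, with only 2 pairs of neighbours within 1 Mb, on chromosomes 6 and 12.

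The largest falls left short peaks in EGF-treated libraries. At chr12:103933201-103939930, of 6730 bp, the covered length was 3186 and 5072 bp in control and 6730 and 4567 bp in knockdown. With EGF it was 308 and 494 bp, and in knockdown with EGF 1332 and 1178 bp. All 4 EGF-treated libraries lay under all 4 vehicle ones, and their mean was 828 bp ± 503 against 4889 bp ± 1464 (SD, n = 4; log2 difference -2.41 ± 0.20 SE, limma adjusted p = 0.00503). The member has no core: the only peak of EGF replicate 1 ran from 152 to 460 bp right of the centre, and that of EGF replicate 2 from -2303 to -1809 bp, left of it. The fall passed under the 16 alternative settings that could be fitted for it, and with only peaks of a −log10 q of 3 or more kept (stricter peaks) it could not be fitted.

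In the next falls the EGF-treated libraries also lay under the vehicle ones, as the choice of these regions required. At chr1:167763259-167768353 the covered length was 3125 and 3679 bp in control, 572 and 2062 bp with EGF, 4959 and 3853 bp in knockdown, and 456 and 224 bp in knockdown with EGF (mean EGF log2 difference -2.28 ± 0.36 SE, limma adjusted p = 0.0159). At chr2:165045669-165052162 it was 2286 and 3327 bp in control, 755 and 578 bp with EGF, 3558 and 6185 bp in knockdown, and 555 and 912 bp in knockdown with EGF (-2.10 ± 0.24 SE, limma adjusted p = 0.00727). In both, every EGF-treated library lay under every vehicle library. With stricter peaks neither call held: the log2 difference was -2.70 (limma adjusted p = 0.142) at the first and 0.056 (limma adjusted p = 0.964) at the second. At chr12:31763230-31769395 the covered length was 3717 and 5783 bp in control, 1271 and 1500 bp with EGF, 4412 and 5766 bp in knockdown, and 1017 and 449 bp in knockdown with EGF (-2.09 ± 0.24 SE, limma adjusted p = 0.00769, and 0.333 with stricter peaks). At chr5:124621649-124627036 it was 1560 and 3283 bp in control, 212 and 1118 bp with EGF, 4056 and 4784 bp in knockdown, and 300 and 1075 bp in knockdown with EGF (-2.14 ± 0.49 SE, limma adjusted p = 0.0421). The last has the widest error of the 5, with the first control library near the second EGF library. Its limma adjusted p rose to between 0.0559 and 0.128 without any 1 library other than control replicate 1 and EGF replicate 2. At chr1:167763259-167768353 it was 0.0513 to 0.0603 without either knockdown library or knockdown with EGF replicate 2.

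Among the rises, the largest was at chr13:51586644-51594245, a member of 7602 bp. Its covered length was 697 and 1222 bp in control and 974 and 534 bp in knockdown. With EGF it was 5607 and 7566 bp, and in knockdown with EGF 1733 and 3684 bp. The 4 EGF-treated libraries lay above the 4 vehicle ones, and their mean was 4648 bp ± 2507 against 857 bp ± 304 (SD, n = 4; log2 difference 2.07 ± 0.30 SE, limma adjusted p = 0.013). In each vehicle library 1 short peak lay left of the member's centre, within the stretch from -1661 to -392 bp of it, and every EGF-treated library also had peaks right of the centre. The width that made this region a member thus came from the EGF-treated libraries. Without knockdown replicate 2 the limma adjusted p was 0.0505.

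At chr6:5058918-5065246 the covered length was 1022 and 2465 bp in control, 5499 and 5394 bp with EGF, 1791 and 1912 bp in knockdown, and 6329 and 5677 bp in knockdown with EGF (mean EGF log2 difference 1.62 ± 0.24 SE, limma adjusted p = 0.0131). Every vehicle library had 2 peaks here and every EGF-treated one a single peak. At chr11:42995432-43001532 it was 1251 and 2211 bp in control, 6035 and 5650 bp with EGF, 1784 and 2601 bp in knockdown, and 4473 and 5250 bp in knockdown with EGF (1.39 ± 0.19 SE, limma adjusted p = 0.0113). At chr6:134975862-134980407 it was 462 and 1000 bp in control, 2233 and 2566 bp with EGF, 1208 and 1676 bp in knockdown, and 3928 and 3434 bp in knockdown with EGF (1.40 ± 0.21 SE, limma adjusted p = 0.0145). In these the groups given EGF and those given vehicle did not overlap in either Arid1a state. At chr11:71629840-71634432 it was 912 and 1820 bp in control, 3751 and 4286 bp with EGF, 991 and 1525 bp in knockdown, and 2458 and 2622 bp in knockdown with EGF (1.21 ± 0.22 SE, limma adjusted p = 0.0222). With stricter peaks the calls at chr11:42995432-43001532 and chr6:134975862-134980407 did not hold (limma adjusted p = 0.0885 and 0.0860). The limma adjusted p of the rise at chr11:71629840-71634432 was 0.0502 to 0.0732 without any 1 library other than those of the control. At chr6:5058918-5065246 it was 0.0512 to 0.0525 without EGF replicate 1, either knockdown library or knockdown with EGF replicate 1, and at chr6:134975862-134980407 it was 0.0517 without knockdown replicate 1 and 0.0565 without knockdown with EGF replicate 1.

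**Figure D4:**
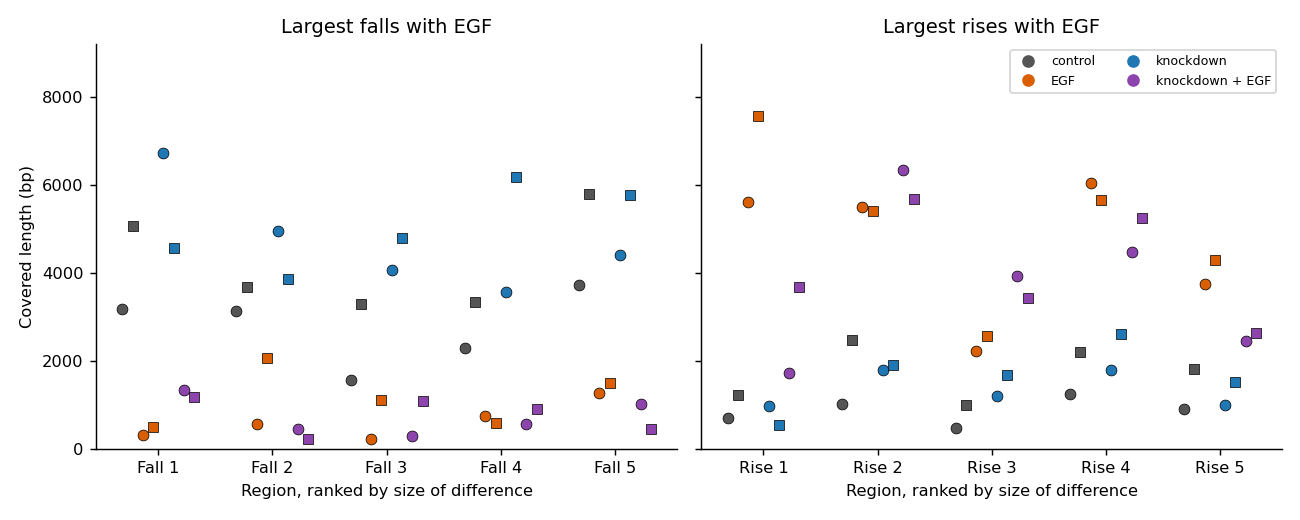
Covered length in every library for the 5 largest falls and the 5 largest rises with EGF among members whose 4 EGF-treated and 4 vehicle libraries do not overlap. In the leading fall the EGF-treated libraries lie between 308 and 1332 bp and the vehicle libraries between 3186 and 6730 bp.

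**Figure D5:**
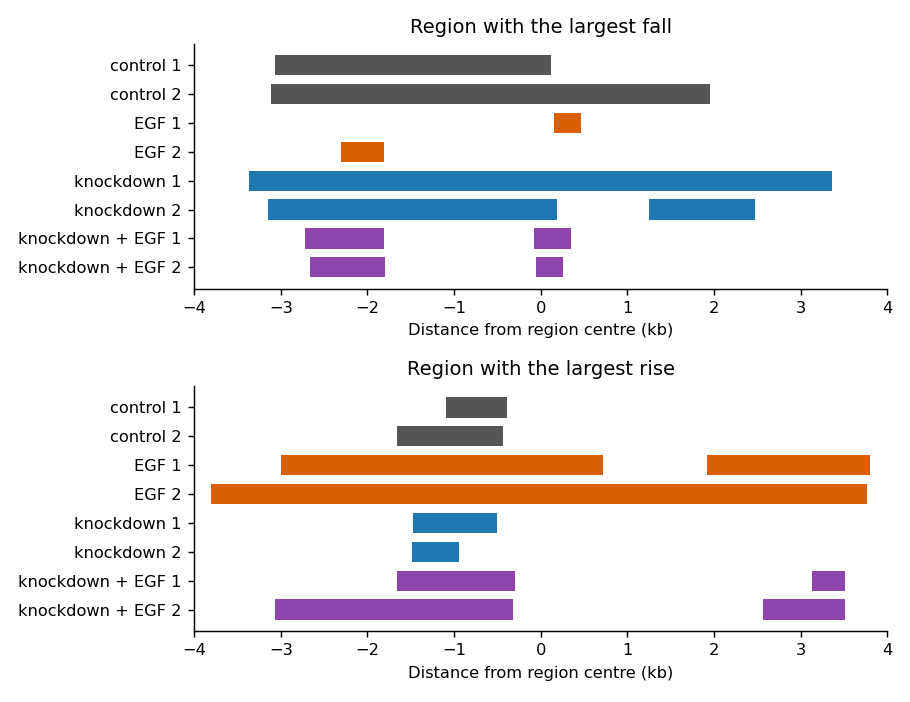
Peaks of each library along the member with the largest fall and the member with the largest rise with EGF, as distance from the member's centre in bp. In the fall, knockdown replicate 1 has 1 peak from -3365 to 3365 bp, and the first EGF library has 1 short peak from 152 to 460 bp.

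One of the members with the highest-ranking peaks fell as well. At chr17:46991428-46996131 the covered length was 3884 and 4231 bp in control, 2684 and 2680 bp with EGF, 4321 and 4704 bp in knockdown, and 3470 and 3271 bp in knockdown with EGF (mean EGF log2 difference -0.48 ± 0.06 SE, limma adjusted p = 0.0078). The vehicle libraries all lay above the EGF-treated ones.

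A change from whole to broken with EGF was rare. In 22 members the peak was whole in all 4 vehicle libraries and broken in all 4 EGF-treated ones, and in 3 the reverse held. This was not counted over other regions. The regions given here were picked after their values were seen, as the 3 widest of the 22 and all 3 of the reverse. At chr11:72820101-72829930 the covered length was 9292 and 9512 bp in control, 6399 and 6517 bp with EGF, 9364 and 9830 bp in knockdown, and 7907 and 8531 bp in knockdown with EGF (mean EGF log2 difference -0.37 ± 0.05 SE, limma adjusted p = 0.012). At chr5:124473326-124482891 the log2 difference was -0.66 ± 0.10 (SE, limma adjusted p = 0.0141), and at chr8:73130357-73139804 it was -0.32 ± 0.06 (SE, limma adjusted p = 0.0204). The 3 reverse members were chr6:5058918-5065246, given before, and a pair on chromosome 14. At chr14:26670084-26677609 the covered length was 3138 and 3622 bp in control, 6755 and 7166 bp with EGF, 4408 and 5064 bp in knockdown, and 7401 and 7526 bp in knockdown with EGF (0.82 ± 0.07 SE, limma adjusted p = 0.00537). At chr14:77185300-77193253 the log2 difference was 0.61 ± 0.13 (SE, limma adjusted p = 0.0328).

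With Arid1a intact, 120 members (4.88%) fell with EGF, where 2.9% of all tested regions did, and 16 (0.651%) rose, where 1.05% did. With knockdown, 226 (9.19%) fell, where 6% of all tested regions did, and 10 (0.407%) rose, where 0.622% did. The members' median log2 difference was -0.16 with Arid1a intact and -0.27 with knockdown, and that of all tested regions -0.14 and -0.32. These contrasts share no library. In both, 71 members fell, 59.2% of those with Arid1a intact and 31.4% of those with knockdown, 5 rose (31.2% and 50%) and none was called in opposite directions. Whatever the call, 1722 members (70.1%) had a negative and 218 (8.87%) a positive difference in both states. Neither these counts nor the calls shared by both states were set beside a share over all tested regions. The medians of all tested regions were also negative in both states, so the match between states is not shown to be particular to the members.

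Both counts rested on single libraries. The 136 calls with Arid1a intact became 0 in limma without EGF replicate 1 or 2 or without knockdown replicate 1 or 2, with 457 to 620 members at an unadjusted p under 0.05. They became 55 and 57 without knockdown with EGF replicate 1 and 2, and 264 (14 rises and 250 falls) without control replicate 1. Without control replicate 2 the median log2 difference was -0.04 in members, against -0.16 with all libraries, and 0.015 in compact regions, against -0.08. This shift was thus not particular to the members. The 236 calls with knockdown became 0 in limma without knockdown replicate 1 or 2 or knockdown with EGF replicate 1, with 582 to 723 members at an unadjusted p under 0.05. They became 7 without knockdown with EGF replicate 2, 112 and 108 without EGF replicate 1 and 2, and 467 and 490 without control replicate 1 and 2. With quantile normalization 119 members fell and 75 rose with Arid1a intact, and 95 fell and 38 rose with knockdown. Of all tested regions 580 then fell and 603 rose with Arid1a intact, and 522 fell and 380 rose with knockdown. With the median over shared regions set equal, 104 members fell and 50 rose with Arid1a intact, and 99 fell and 34 rose with knockdown. Of all tested regions 733 then fell and 410 rose with Arid1a intact, and 914 fell and 257 rose with knockdown.

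The leading members of each state were largely those of the mean. With Arid1a intact, the rises at chr13:51586644-51594245 (log2 difference 2.57 ± 0.42 SE, limma adjusted p = 0.0356) and chr11:42995432-43001532 (1.69 ± 0.27, limma adjusted p = 0.0339) and the fall at chr12:103933201-103939930 (-2.83 ± 0.29, limma adjusted p = 0.0214) led. At chr11:76227647-76234015, the third rise, the covered length was 1407 and 2010 bp in control, 5015 and 4752 bp with EGF, 2661 and 3267 bp in knockdown, and 4823 and 6369 bp in knockdown with EGF (1.43 ± 0.20 SE, limma adjusted p = 0.0255). At chr9:63501232-63508071 it was 4918 and 4316 bp in control, 996 and 1436 bp with EGF, 5971 and 6840 bp in knockdown, and 1836 and 962 bp in knockdown with EGF (-1.78 ± 0.29 SE, limma adjusted p = 0.0338). In both regions the libraries moved the same way in the knockdown state. Each of these calls was lost without EGF replicate 1 or 2 or knockdown replicate 1 or 2, with limma adjusted p-values from 0.0509 to 0.163. Those at chr13:51586644-51594245 and chr9:63501232-63508071 were also lost without either control library, and that at chr11:42995432-43001532 without either library of knockdown with EGF. With stricter peaks none of these calls held: the limma adjusted p was 0.115 to 0.330 at the 3 rises, and the 2 falls could not be fitted. With lists of equal length both falls were also lost (limma adjusted p = 0.0546 and 0.429).

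With knockdown, the falls at chr1:167763259-167768353 (log2 difference -3.12 ± 0.50 SE, limma adjusted p = 0.0257), chr12:31763230-31769395 (-2.56 ± 0.35, limma adjusted p = 0.0182) and chr2:165045669-165052162 (-2.42 ± 0.33, limma adjusted p = 0.0185) led, and the rise at chr6:5058918-5065246 was 1.59 ± 0.33 (limma adjusted p = 0.0479). With stricter peaks none of these 4 calls held. The difference was then -1.63 (limma adjusted p = 0.547) at chr1:167763259-167768353, -2.45 (limma adjusted p = 0.547) at chr12:31763230-31769395 and 0.50 (limma adjusted p = 0.786) at chr2:165045669-165052162, and the rise at chr6:5058918-5065246 had a limma adjusted p of 0.0842. That rise also missed the threshold with a pseudocount of 50 bp, with all regions tested and with only fully shared regions tested (limma adjusted p from 0.0532 to 0.0548). At chr14:21164331-21168404 the covered length was 1633 and 2043 bp in control, 2809 and 3655 bp with EGF, 1912 and 1768 bp in knockdown, and 3497 and 3818 bp in knockdown with EGF (0.92 ± 0.16 SE, limma adjusted p = 0.0285). At chr5:124681516-124686860 it was 2844 and 3265 bp in control, 4535 and 4910 bp with EGF, 2898 and 3331 bp in knockdown, and 4839 and 5133 bp in knockdown with EGF (0.65 ± 0.10 SE, limma adjusted p = 0.0253). At chr14:21164331-21168404 the EGF duplicates lay further apart than those of any other group (SD 598 bp, n = 2). Each call of this contrast named here was lost without any 1 of the 4 knockdown libraries, with limma adjusted p-values from 0.0634 to 0.202. The calls at chr6:5058918-5065246 and chr5:124681516-124686860 were also lost without either EGF library.

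No member passed the test of the difference between the EGF effects in the 2 states. In limma 0% of all tested regions were called higher and 0% lower, the smallest adjusted p among members was 0.153, and at an unadjusted p under 0.05 there were 200 members, 40 with a higher and 160 with a lower EGF effect in knockdown cells. The median difference of the effects was -0.11 in members and -0.16 in all tested regions, and -0.23 and -0.32 without control replicate 2. With stricter peaks 54 of 2426 members were called, where 747 of 17883 tested regions were. The smallest p in the positive direction was at chr11:113477272-113482999, with 4580 and 4568 bp in control, 1991 and 2009 bp with EGF, 5728 and 5311 bp in knockdown, and 3800 and 3795 bp in knockdown with EGF (log2 difference of the effects 0.60 ± 0.09 SE, limma adjusted p = 0.153). In the negative direction it was at chr9:56417846-56421917, with 3334 and 3023 bp in control, 2753 and 2688 bp with EGF, 3728 and 3624 bp in knockdown, and 1067 and 1195 bp in knockdown with EGF (-1.33 ± 0.13 SE, limma adjusted p = 0.153). In the latter the knockdown libraries with EGF lay lowest, and the EGF libraries also lay under all vehicle ones.

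With knockdown and no EGF, 22 members (0.895%) rose, where 1.09% of all tested regions did, and none fell, where 0.274% of all tested regions did. In limma 509 members had an unadjusted p under 0.05, 484 higher and 25 lower, and the median log2 difference was 0.19 in members and 0.18 in all tested regions. At chr14:65283177-65287788 the covered length was 1280 and 1795 bp in control, 1058 and 1136 bp with EGF, 4551 and 4555 bp in knockdown, and 2798 and 2886 bp in knockdown with EGF (log2 difference without EGF 1.47 ± 0.15 SE, limma adjusted p = 0.0386). The knockdown libraries lay above the intact ones in both EGF states, and with EGF the difference was 1.23 ± 0.15 (limma adjusted p = 0.0408). At chr11:102083639-102088400 it was 780 and 1483 bp in control, 1979 and 1902 bp with EGF, 3884 and 3572 bp in knockdown, and 2174 and 2257 bp in knockdown with EGF (1.61 ± 0.24 SE, limma adjusted p = 0.0455). At chr4:45417918-45422384 it was 2149 and 1519 bp in control, 1576 and 1639 bp with EGF, 4252 and 4467 bp in knockdown, and 2020 and 1841 bp in knockdown with EGF (1.18 ± 0.15 SE, limma adjusted p = 0.039). In these members the knockdown libraries without EGF were the highest of all.

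Of the negative differences, the smallest p was at chr5:117773300-117778219, with 4844 and 3998 bp in control, 3327 and 3453 bp with EGF, 2677 and 3041 bp in knockdown, and 3059 and 2614 bp in knockdown with EGF (-0.59 ± 0.13 SE, limma adjusted p = 0.111). The 22 calls became 0 in limma under quantile normalization, with 443 members at an unadjusted p under 0.05, and with the median over shared regions set equal, with 421. They also became 0 without any single library other than control replicate 2, with 337 to 450 members at an unadjusted p under 0.05, and 350 without control replicate 2. Without 1 of these libraries the 3 rises named had limma adjusted p-values from 0.0842 to 0.350, and under the 2 scalings from 0.0611 to 0.118. With stricter peaks the call at chr4:45417918-45422384 held, and those at chr11:102083639-102088400 and chr14:65283177-65287788 did not (limma adjusted p = 0.0782 and 0.471). The call at chr11:102083639-102088400 was also lost with a pseudocount of 1000 bp (limma adjusted p = 0.0505), and all 3 with all regions or only fully shared regions tested (0.0815 to 0.146). The first control library has the shorter list of the control pair.

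Under EGF, 12 members (0.488%) rose with knockdown, where 0.234% of all tested regions did, and 5 (0.203%) fell, where 0.426% did. At chr2:26336048-26340740 the covered length was 1944 and 2784 bp in control, 315 and 253 bp with EGF, 3712 and 4077 bp in knockdown, and 1771 and 2625 bp in knockdown with EGF (log2 difference with EGF 2.29 ± 0.23 SE, limma adjusted p = 0.038). With Arid1a intact this member fell with EGF (-2.39 ± 0.23 SE, limma adjusted p = 0.0214, 0.177 with stricter peaks and 0.0509 to 0.107 without either EGF or either knockdown library), and with knockdown the EGF difference was -0.79 (limma adjusted p = 0.102). The difference between these effects was 1.59 (limma adjusted p = 0.175). At chr4:136964619-136970232 the covered length was 3658 and 4101 bp in control, 1142 and 1208 bp with EGF, 5283 and 4112 bp in knockdown, and 5183 and 3417 bp in knockdown with EGF (1.68 ± 0.21 SE, limma adjusted p = 0.0428). At chr3:95474957-95480341 it was 1939 and 2648 bp in control, 1559 and 1795 bp with EGF, 4601 and 5385 bp in knockdown, and 4908 and 4165 bp in knockdown with EGF (1.33 ± 0.17 SE, limma adjusted p = 0.0431). In the last, all 4 knockdown libraries lay above all 4 intact ones. The 3 calls were lost without any 1 library other than the control ones, with limma adjusted p-values up to 0.213, and that at chr4:136964619-136970232 also without control replicate 1. None held with stricter peaks (limma adjusted p from 0.457 to 0.736) or with a pseudocount of 1000 bp (0.0665 to 0.0723).

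In the 3 largest falls under EGF the knockdown libraries with EGF lay apart from the other 3 groups. With stricter peaks the difference was 0 (limma adjusted p = 1) at the first and the third and -3.03 (limma adjusted p = 0.0947) at the second. With a pseudocount of 1000 bp none of the 3 passed (limma adjusted p from 0.0665 to 0.0775). At chr1:131793966-131798431 the covered length was 3539 and 4466 bp in control, 3612 and 3577 bp with EGF, 3244 and 3311 bp in knockdown, and 776 and 653 bp in knockdown with EGF (-2.06 ± 0.13 SE, limma adjusted p = 0.0307). At chr8:5489032-5493419 it was 3939 and 4194 bp in control, 2533 and 3818 bp with EGF, 4126 and 4072 bp in knockdown, and 785 and 979 bp in knockdown with EGF (-1.62 ± 0.19 SE, limma adjusted p = 0.0408). At chr3:67141673-67147048 it was 3006 and 3913 bp in control, 2753 and 2296 bp with EGF, 4489 and 4809 bp in knockdown, and 684 and 982 bp in knockdown with EGF (-1.41 ± 0.19 SE, limma adjusted p = 0.0468). In each, the other 6 libraries lay above both. The 17 calls became 40 and 53 without control replicate 1 and 2, and 0 in limma without any other single library, with 283 to 372 members at an unadjusted p under 0.05. The limma adjusted p of the 3 falls was then 0.0818 to 0.220. With quantile normalization 19 members rose and 13 fell, where 71 and 107 of all tested regions did. With the median over shared regions set equal 21 members rose and 11 fell, where 118 and 171 of all tested regions did.

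Over both EGF states, the 4 knockdown libraries lay above the 4 intact ones in 151 members (6.14%; 3.98% of all tested regions) and under them in 14 (0.57%; 0.995%). The covered lengths of the other members overlapped between the states.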

How the data were processed

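H3K27ac peak lists of 8 libraries (4 groups of 2) were used, 1 per library, without a header and with 9 columns. The build was mm9 and the tools MACS2 2.1.1.20160309.0, Bowtie2 2.3.4.2, deepTools 3.0.2 and SAMtools, with no role or order, per the submitters' processing notes. Not given in the sources used here are the caller's settings and any input library. The score in the deposited lists was, for all but 11 peaks, the whole-number part of 10 times the deposited −log10 q. The deposited fold enrichment is the authors' ratio over the caller's background. The lowest deposited −log10 q was 1.00 and the shortest deposited peak 200 bp. Depth is unknown, and deeper libraries can give longer lists and wider peaks.

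Covered bp per merged region were tested with limma 3.58.1 under R 4.3.3 (log2 of covered bp plus 200, trended empirical Bayes, 1 mean per group, spread from all 8 libraries), and adjusted over the 28146 regions found in 2 or more libraries. Differences of short peaks come out too small on this scale. Values per library were compared by permuting the libraries over all 70 assignments (exact, two-sided). SciPy 1.17.1, NumPy 2.4.6, matplotlib 3.10.9 and pandas 2.3.3 were used in Python 3.11.15, and the steps were tested on simulated data.

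Named regions are the 5 largest rises and falls of the mean EGF effect without overlap between treatments, up to 3 each way in the other contrasts (the smallest p where none passed), the 5 highest and 3 lowest by score percentile, the 3 steadiest of at least 6000 bp, those nearest each limit and those with the most peaks. The members, lists and rules were chosen with earlier results of these data known. Alternatives were pseudocounts of 50 and 1000 bp, other region filters, quantile normalization, lists of equal length, peaks of −log10 q of at least 3, other member limits, leaving out each library and a replicate block. Centring on the shared-region median and members spanning 4000 bp in EGF-treated libraries alone were added after seeing the data. A gene annotation and genome of mm9 were not used here, so planned gene lists were not analysed and no sequence is given.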

Additional observations from a re-analysis of the deposited data

Results flagged for a closer look

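One value stood apart within its group of 4. Among the 4 Arid1a-intact libraries the mean share of member width covered was 66.2% and 81.6% in control and 63.6% and 65.2% with EGF, and the second control library lay far above the other 3 by Dixon's criterion. Chance marks about 1 in 20 groups, and 32 groups were looked at. The second control library also had the longest list, 28281 peaks, and the part of list length in this value was not tested.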

How the results depend on the processing

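Every mean EGF count kept more falls than rises, and without each library in turn it lay between 186 and 814 calls. For EGF with Arid1a intact, leaving out control replicate 2 moved the median log2 difference to -0.04 in members and 0.015 in compact regions. Without each library the counts ranged from 0 to 264 for EGF with Arid1a intact, 0 to 490 for EGF in knockdown cells, 0 to 350 for knockdown without EGF, 0 to 53 for knockdown with EGF, and 0 to 85 for the difference of the EGF effects. Where this leaves 1 library in a group, limma takes the lone library to vary like the other groups. The EGF difference in covered share ranged from -17.8 to -10.8 points (exact permutation p 0.0857 to 0.114 where control replicate 1 was kept), that in broken members from 3.85 to 8.19 points (exact permutation p 0.143 to 0.229 where it was kept) and that in the share of list length from 0.617 to 1.59 points (exact permutation p 0.0571 to 0.371). The knockdown difference in covered share ranged from 4.16 to 11.8 points (exact permutation p 0.143 to 0.457).

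EGF with Arid1a intact gave 77 calls where only regions with a peak in all 8 libraries were tested. EGF in knockdown cells gave 133 calls both with quantile normalization and with the shared-region median set equal. Knockdown without EGF gave 41 and 10 calls with pseudocounts of 50 and 1000 bp, 48 with lists of equal length, 65 with stricter peaks, and 0 with all regions tested, with only fully shared regions tested and under both scalings. Knockdown with EGF gave 32 and 0 calls with these pseudocounts, 11 with all regions and 5 with fully shared regions tested, 37 with equal lists, 71 with stricter peaks and 32 under both scalings. The difference of the EGF effects gave 54 calls among 2426 members with stricter peaks, where 747 of 17883 tested regions were called. The EGF difference in broken members was 1.2002 points with stricter peaks, 3.14 over members of at least 3000 bp and 8.55 over those of at least 5000 bp, and that in the share of list length was 0.0568, 1.81 and 0.596 points. The EGF difference in the share of list length in members turned to -0.29 points with equal lists (exact permutation p = 0.457), and the member at chr2:165045669-165052162 turned to 0.056 for the mean EGF effect and 0.50 in knockdown cells with stricter peaks. The cause was not tested.

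Region by region, duplicates with the same number did not deviate together. The correlation of their deviations lay between -0.0093 and 0.0317 over the tested regions and between 0.0056 and 0.0900 over members, so the numbers were not taken to pair libraries. Such a correlation leaves out a shift of a whole library. In list length and in mean covered share, replicate 2 lay above replicate 1 in every group. With the replicate number as a block, limma called 507 members for the mean EGF effect, 188 for EGF in knockdown cells, and 0 for EGF with Arid1a intact, for knockdown without or with EGF and for the difference of the EGF effects, with 253 to 730 members at an unadjusted p under 0.05 in these last 4. Permutation within replicate number gave an exact p of 0.111 for the EGF difference in covered share, 0.222 for knockdown, 0.167 for broken members and 0.167 for the share of list length, where 0.0556 is the smallest possible.

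Without depth, a short or absent peak cannot be told apart from a shallow library, and covered length says nothing of signal height.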
